A study of Mus musculus with 12 samples.

Results

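Small nucleolar RNAs (snoRNAs) and small Cajal body RNAs (scaRNAs) were followed in mouse embryonic stem cells with and without P53 in serum and in 2i medium. They were selected on their measured values: of the 24881 gene symbols in the deposited table, 115 carried a Snora, Snord or Scarna name, and the 102 that stood above 0 FPKM in both libraries of at least 1 group were taken. These 102 comprised 61 C/D box genes (Snord), 33 H/ACA box genes (Snora) and 8 scaRNA genes (Scarna). FPKM is a fragment number scaled to a length for each gene and to the size of the library. The length that the authors' processing used is not given. Members of unlike annotated length could share 1 value, such as those of 78, 70 and 68 bases at 17605 FPKM in WT 2i library 2. Levels of different members are therefore given as deposited and are not read as amounts of RNA. Since all 8 libraries entered the choice, presence and level of the members are a description, and p-values are given only for the 75 members above 0 in all 8 libraries (38 C/D, 32 H/ACA, 5 scaRNA). These 75 are the members above 0 in 1 WT 2i library, library 2, since every other member was at 0 there, so in comparisons with WT 2i the 75 leave out members for their low WT 2i value. Counts over all 102 include members listed at 0, whose calls rest on the values that chose them, and are a description.

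The cells were R1 mouse embryonic stem cells with the FUCCI cell cycle reporter, sorted for G1 phase, and every group shared that reporter and that sort. The 4 groups were WT and P53-/- cells in serum, and WT and P53-/- cells in 2i, with 2 libraries in each. Serum cultures also held LIF, and 2i is serum-free medium with LIF, the MEK inhibitor PD0325901 and the GSK3 inhibitor CHIR99021. The P53-/- lines were CRISPR/Cas9 clones, of which clones 1 and 2 were used for RNA sequencing, but columns are not tied to a clone. Libraries are called 1 and 2 by the order of their columns only, which does not pair them, and nothing states whether the 2 of a group came from separate cultures, so p-values measure the spread between these libraries.

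Most mammalian snoRNAs are cut out of introns of host genes rather than made from promoters of their own. C/D box snoRNAs bind fibrillarin and guide 2′-O-methylation of ribosomal RNA, H/ACA box snoRNAs bind dyskerin and guide pseudouridylation, and scaRNAs guide the same modifications on spliceosomal RNAs in Cajal bodies. A few members have roles in cleavage of the ribosomal RNA precursor, among them Snord118 (U8) and Snord22 (U22).

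The members that the comparisons turn on are shown here with the boxes that define their class. Sequences and positions are from GENCODE M21 on GRCm38, matched by symbol, whereas the files were made on mm9. In C/D genes the capitals mark the C box TGATGA near the 5′ end and the D box CTGA in the last 20 bases. In H/ACA genes they mark the first H box ANANNA in the middle of the RNA and the ACA at the 3′ end. The strand of the gene was read, and a box whose exact letters were not found, such as the C box of Snord45b, Snord88a and Snord88c, is left in lower case. Snord45b at chr3:153910563-153910633 (minus strand) and Snord45c at chr3:153912125-153912204 (minus strand) lie in Rabggtb, which encodes a subunit of the enzyme that prenylates Rab proteins. Snord37 at chr10:81178950-81179013 (plus strand) lies in an intron of the elongation factor gene Eef2, and Snora61 at chr4:132310240-132310369 (plus strand) lies in the non-coding host Snhg12. Snord45c and Snora61 overlap an annotated exon of their host, while Snord45b lies in an intron. These 4 are among 9 members for which both P53-/- 2i libraries lay more than 5-fold above both WT 2i libraries. Of the rest of the 9, only Snord88c is shown.

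Snord45b: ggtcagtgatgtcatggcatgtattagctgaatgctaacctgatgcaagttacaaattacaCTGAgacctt
Snord45c: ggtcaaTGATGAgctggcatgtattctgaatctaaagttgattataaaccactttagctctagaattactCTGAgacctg
Snord37: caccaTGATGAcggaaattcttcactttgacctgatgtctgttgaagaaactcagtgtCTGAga
Snora61: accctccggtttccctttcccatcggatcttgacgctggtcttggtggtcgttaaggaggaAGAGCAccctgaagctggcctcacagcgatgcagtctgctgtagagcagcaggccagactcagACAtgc

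Snord88a and Snord88c are shown because they are near copies, so that reads may have been divided between them and their values are uncertain: they share 85 of 90 aligned bases (94.4%), at chr7:44250135-44250224 (plus strand) and chr7:44249852-44249941 (plus strand), both within 2410002F23Rik.

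Snord88a: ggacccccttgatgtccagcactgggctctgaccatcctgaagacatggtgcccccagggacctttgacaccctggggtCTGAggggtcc
Snord88c: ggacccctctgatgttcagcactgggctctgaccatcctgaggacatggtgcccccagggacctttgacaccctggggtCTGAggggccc

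The next 3 were called in opposite directions between the media in WT. Snora5c at chr11:6620319-6620454 (minus strand) lies in an intron of Tbrg4. Snord82 at chr1:86356261-86356330 (minus strand) lies in an intron of the nucleolin gene Ncl, and Snord95 at chr11:48803139-48803206 (plus strand) in an intron of Rack1, which encodes a ribosome-bound scaffold protein.

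Snora5c: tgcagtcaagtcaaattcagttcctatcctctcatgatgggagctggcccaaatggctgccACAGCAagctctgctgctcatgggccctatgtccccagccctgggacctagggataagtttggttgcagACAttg
Snord82: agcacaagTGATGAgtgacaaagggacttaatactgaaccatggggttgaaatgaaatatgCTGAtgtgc
Snord95: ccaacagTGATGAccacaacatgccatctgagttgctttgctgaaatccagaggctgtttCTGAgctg

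All 102 members matched a gene of that annotation, and 96 of them lay within 73 host genes. Both boxes were found in 38 of the 61 C/D members (62.3%), against 68.7% of the 99 annotated genes of that class name, and in 28 of the 33 H/ACA members (84.8%), against 88.1% of 42. C/D members were 64 to 238 bases long with a median of 79, H/ACA members 121 to 196 with a median of 132, and scaRNA members 79 to 414. Other pairs were less alike: Scarna3a and Scarna3b shared 85.7% of aligned bases, and Snord35a and Snord35b 73.6%.

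The targeted gene was lower but not absent in the P53-/- libraries. Trp53 had 26.8 and 33.7 FPKM (WT 2i) against 7.25 and 1.88 (P53-/- 2i), a log2 change of -2.98 (limma adjusted p = 0.0547), and 77.6 and 75.1 (WT serum) against 16.8 and 3.68 (P53-/- serum), a log2 change of -3.26 (adjusted p = 0.150). Cdkn1a, the P53 target that encodes P21, had 23.9 and 15.9 FPKM (WT 2i), 3.56 and 4.64 (P53-/- 2i), 16.2 and 18.6 (WT serum), and 3.57 and 3.93 (P53-/- serum), so its groups did not overlap in either medium. The 8 stem cell markers together held 3540 to 4490 FPKM per library and none of them was below 23.2. Markers of other cells were low apart from Thy1, Krt8 and Tubb3. The 6 fibroblast markers summed to 0.456 to 1.34 FPKM in 2i and 7.73 to 10.5 in serum, where nearly all of it was Thy1, with 2 of them at 0 in every library. The 3 trophoblast markers summed to 43.6 to 103 FPKM in 2i and 1.96 to 6.65 in serum, nearly all of it Krt8, while Cdx2 stayed near or below 1 and Elf5 at or near 0. In WT and in P53-/- cells alike, the mesoderm and primitive endoderm sums were higher in 2i, at most 3.72 and 3.96 FPKM. The neural sum, mostly Tubb3, was 28.1 to 30.5 FPKM (WT 2i), 17.3 to 22.1 (P53-/- 2i), 20.2 to 21.8 (WT serum) and 30.9 to 33.9 (P53-/- serum). All 5 of these lists thus separated the media within each genotype, and their part in the results on media was not tested.

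The members took up most of the summed FPKM of every library, which is not read as a share of the RNA. C/D genes alone held 73.7% to 75.3% of it in the 4 libraries from 2i and 88.8% to 90.3% in the 4 from serum. In 2i the C/D sum lay between 4952800 and 5840700 FPKM in all 4 libraries. In serum it was 14400000 and 72503000 in WT and 32582000 and 43523000 in P53-/-. The 2 WT serum libraries thus differed 5.04-fold in their C/D sum and 4.90-fold in their H/ACA sum, and the sum of 11969 other genes differed 4.003-fold. All 38 C/D and all 32 H/ACA genes above 0 throughout were higher in WT serum library 2 than in library 1, with median ratios of 4.65 and 4.99, where the median ratio of the other genes was 1.01. Small RNAs that are no members were higher there too, among them Rmrp, Rnu11 and Rnu12 by 2.63, 2.81 and 3.33 on the log2 scale. In P53-/- serum the median ratios of C/D and H/ACA genes were 1.37 and 1.28, and in the 2i groups they lay between 0.81 and 1.31.

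**Figure D1:**
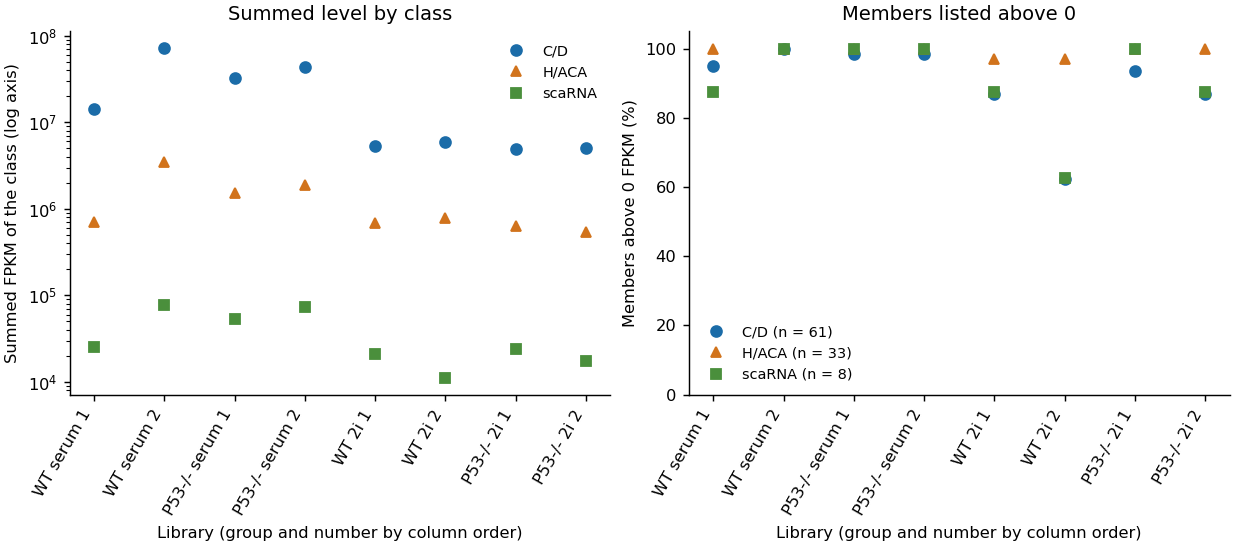
Left, summed FPKM of the C/D, H/ACA and scaRNA members (log axis) and right, the percentage of members above 0, for each of the 8 libraries; every point is 1 library. The C/D sums in 2i lie close together, the serum sums spread from 14400000 to 72503000, and WT 2i library 2 has the fewest members above 0.

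Members were missing mainly from 1 library. WT 2i library 2 listed 27 of the 102 members at 0 (23 C/D, 1 H/ACA and 3 scaRNA), and for 12 of them it was the only such library. WT 2i library 1 listed 10 at 0, P53-/- 2i 4 and 9, P53-/- serum 1 each, WT serum library 1 listed 4 and WT serum library 2 none. In WT 2i library 2, 15 of the 33 C/D members of at most 80 bases were at 0, and the lowest of them above 0 was Snord85 with 7935 FPKM. In WT 2i library 1 the lowest was Snord1a with 415 FPKM. In that library 2, Snord53 (78 bases), Snord82 (70 bases) and Snord95 (68 bases) all had the same value, 17605 FPKM. A 0 in that library could stand beside a high value in its partner: Snord68 had 109955 FPKM in WT 2i library 1 and 0 in library 2, and Snord42a had 87624 and 0. The number of fragments behind a value is unknown.

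Among C/D genes the highest mean levels belonged to Snord49b, Snord65, Snord110, Snord104 and Snord69. Snord49b and Snord65 lie in the same non-coding host, 2410006H16Rik, are both 72 bases long and stayed close to each other. Snord49b had 504129 and 454394 FPKM (WT 2i), 508239 and 344346 (P53-/- 2i), 1080000 and 8510000 (WT serum), and 2740000 and 3860000 (P53-/- serum). Snord65 had 456767 and 230071 FPKM (WT 2i), 375907 and 293898 (P53-/- 2i), 1340000 and 7240000 (WT serum), and 3030000 and 3790000 (P53-/- serum). In all 8 libraries their ratio stayed between 0.806 and 1.98. Snord110, in the gene of the C/D core protein Nop56, had 213489 to 320101 FPKM in 2i and 1130000 to 6250000 in serum. Snord104 had 443366 to 946895 in 2i and 964889 to 3730000 in serum, and Snord69, in the nucleostemin gene Gnl3, had 243643 to 352111 and 628435 to 4580000. For all 5, the lowest serum library lay above the highest 2i library. Of all genes tested, 60.8% had no overlap between the 4 libraries from 2i and the 4 from serum, in either direction. Snord118, which is needed to process the large-subunit ribosomal RNA precursor, had 113825 to 156275 FPKM in 2i and 688332 to 2510000 in serum. Snord22, in Snhg1, had 175818 to 438648 and 503434 to 1580000.

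In summed FPKM as deposited, H/ACA genes were lower than C/D genes, a comparison of genes of unlike length. Snora81, in the helicase gene Eif4a2, was the highest, with 215992 and 192679 FPKM (WT 2i), 189409 and 118431 (P53-/- 2i), 89641 and 250298 (WT serum), and 111705 and 163796 (P53-/- serum). Its media overlapped. Snora70, in Rpl10, had 45922 to 77689 FPKM in 2i and 82084 to 403113 in serum, so its media did not overlap. Snora21 (in Rpl23) had 33164 to 71330 in 2i and 50509 to 351204 in serum, Snora64 (in Rps2) 40583 to 96589 and 58083 to 289757, and Snora34 (in Kansl2) 15093 to 35029 and 40168 to 287580. Of these 3, Snora34 alone had no overlap between the media, which held for 60.8% of all genes tested in either direction.

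The scaRNA members had the lowest sum, 11096 to 23905 FPKM in 2i and 25473 to 77397 in serum. Scarna2 had 8744 and 0 FPKM (WT 2i), 7428 and 3696 (P53-/- 2i), 11246 and 19187 (WT serum), and 14057 and 19597 (P53-/- serum). Scarna6, in the autophagy gene Atg16l1, had 2045 to 2702 FPKM in all 4 libraries from 2i, 2420 and 26239 (WT serum) and 13798 and 25205 (P53-/- serum). WT serum library 1 therefore sat with the 2i libraries for this gene. Scarna8 had 3845 to 6234 in 2i and 4229 to 10629 in serum, and Scarna13, in Snhg10, had 1559 to 2401 and 851 to 3125. Scarna10 had 3112 and 0 (WT 2i), 1921 and 1356 (P53-/- 2i), and 3588 to 7205 in serum. Scarna3a had 348 to 1583 in 2i and 976 to 4046 in serum, and Scarna3b 453 to 1212 and 1552 to 5160. Scarna17 was listed at 0 in 4 libraries and had 2332 to 7130 in the others. In P53-/- 2i library 1 and in P53-/- serum library 2 its value was identical to that of Snora61.

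P53-/- and WT cells were compared first in 2i. A set of mostly C/D genes had lower values in both WT 2i libraries than in both P53-/- 2i libraries. Separation of any size ran both ways, however. Both P53-/- 2i libraries lay above both WT 2i libraries for 21 members and below both for 23. The other 58 members overlapped, and no share over all genes was computed for this separation. For 9 members the lower P53-/- 2i value was more than 5 times the higher WT 2i value, and for 0 members the reverse held. Over the 12572 genes tested the same gap was found for 0.223% and its reverse for 0.557%, but the 9 entered the selection through the groups in which they were present, so the counts are a description. In 2i the marker sums of all 5 other cell types were lower in P53-/- than in WT without overlap, for example 0.97 to 2.12 FPKM against 2.74 to 3.72 for mesoderm, and their part in this comparison was not tested. Snord45b had 91975 and 214617 FPKM (P53-/- 2i) and was listed at 0 in both WT 2i libraries, although it had 59024 and 342320 (WT serum) and 171451 and 239702 (P53-/- serum). Its neighbour Snord45c had 63655 and 104636 FPKM (P53-/- 2i) and 1208 and 0 (WT 2i), with 17434 to 166479 in serum. Both thus stood within their serum range in P53-/- 2i and below it in WT 2i. The lower end of that range was WT serum library 1 alone. Every other serum library had at least 171451 FPKM of Snord45b and at least 115613 of Snord45c. Snord45b in P53-/- 2i library 1 and Snord45c in both P53-/- 2i libraries were below those values. Their host Rabggtb had 113 and 99.3 FPKM (P53-/- 2i) and 115 and 107 (WT 2i), a log2 change of -0.07 (limma, adjusted p = 0.838).

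In the same direction, Snord47, in the non-coding host Gas5, had 44822 and 54738 FPKM (P53-/- 2i) and 2772 and 0 (WT 2i). Snord12, in Zfas1, had 51858 and 55946 against 4999 and 0. Snord38a had 76529 and 51839 against 5618 and 0. All 3 were below their serum range in both WT 2i libraries, and Snord38a was below it in both P53-/- 2i libraries as well. In P53-/- 2i, Snord47 and Snord12 were within it through WT serum library 1 alone and were below every other serum library. Snord87, in Snhg6, had 18672 and 28525 FPKM against 3624 and 0. Snord37 had 3615 and 11190 against 0 and 0, Snora61 had 3325 and 3292 against 0 and 0, and Snord88c had 399 and 518 against 0 and 0. These 4 were also below their serum range in both P53-/- 2i libraries. In serum Snora61 had 6819 and 11030 FPKM in WT and 9327 and 7130 in P53-/-, which overlapped. Its 3325 FPKM in P53-/- 2i library 1 was also the value of Scarna17 there. How many fragments lie behind the Snora61 values is unknown, so its distance from 0 in 2i is uncertain. All 9 were at 0 in WT 2i library 2, which had the most members at 0, and 4 of them also in library 1, where the other 5 had 1208 to 5618 FPKM. The part of library 2 in this result was not tested.

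**Figure D2:**
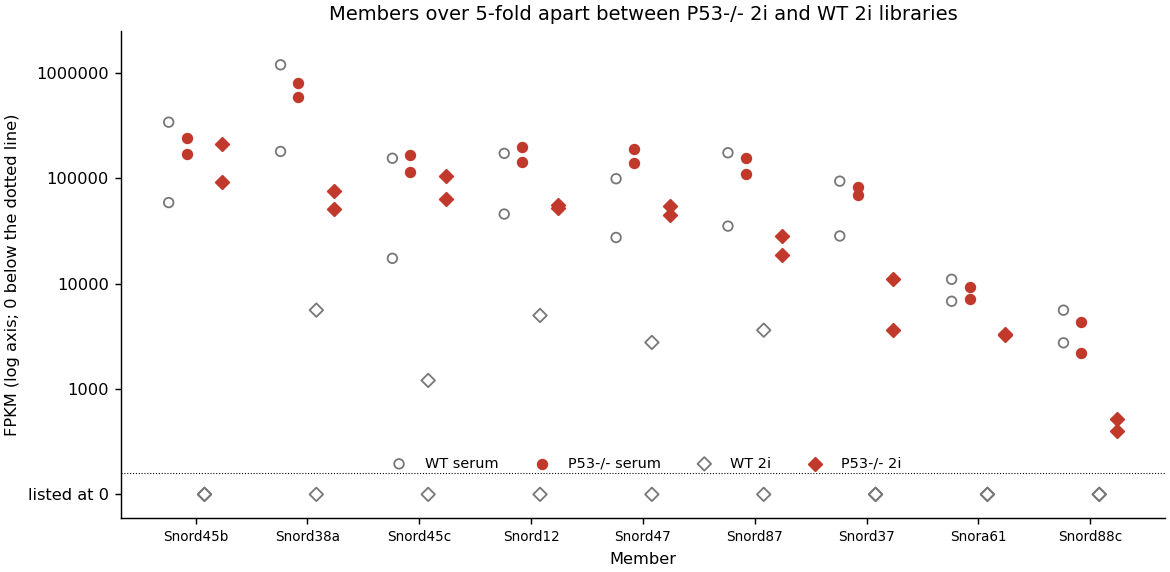
FPKM (log axis, values of 0 below the dotted line) of the 9 members whose P53-/- 2i libraries both lay more than 5-fold above both WT 2i libraries; each symbol is 1 library. The open diamonds of WT 2i lie at 0 or at most at 5618 FPKM, for each gene below every library of the other 3 groups.

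Other members from the same hosts had levels that overlapped or lay the other way. In Snhg12, Snora16a had 23510 and 26514 (WT 2i) and 23391 and 18417 (P53-/- 2i), and Snord99 365721 and 240817 against 204826 and 232408, so both were lower in P53-/- 2i, though neither was called. Snord88a, the close copy of Snord88c, had 1427 and 8179 against 1331 and 4980, which overlapped. The hosts Gas5, Zfas1, Snhg6, Eef2, Snhg12 and 2410002F23Rik had log2 changes of -0.33, -0.31, -0.07, -0.32, -0.39 and -0.25 between P53-/- 2i and WT 2i, with none called (limma, lowest adjusted p = 0.232).

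In the fit over all genes (limma on log2(FPKM + 0.1), where a call needs more than a 1.5-fold change with its adjusted p below 0.1), 5 of 102 members passed the thresholds as higher in P53-/- 2i than in WT 2i and 0 as lower, where all genes gave 4.36% and 5.97%. All 5 (Snora61, Snord37, Snord45b, Snord45c and Snord88c) were at 0 in at least 1 WT 2i library and were members through the other groups, so this is a description and neither a test nor a fold change is given. Without WT 2i library 1, which leaves only the library with 27 members at 0 on the WT side, the count rose to 16.

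Among the 75 members above 0 in all libraries, 0 were called in either direction between P53-/- and WT 2i, and 0 reached an unadjusted p of 0.05. Since the 27 members at 0 in WT 2i library 2, with all 5 that passed, are left out of the 75 through a value of this comparison, nothing is read from that count about the members as a whole. The median log2 change of these members was -0.12 (C/D -0.19, H/ACA -0.03, scaRNA 0.54), against 0.02 over all genes tested. With quantile normalisation 5 of these 75 were called lower and 0 higher. Scarna3b came closest on the deposited scale. It had 1212 and 1097 FPKM (P53-/- 2i) and 453 and 647 (WT 2i), a log2 change of 1.09 ± 0.49 (SE, limma adjusted p = 0.215), and the groups did not overlap. It was called higher when the members' rows were centred in each library and when either WT serum library was left out. Scarna8 was at 5130 and 6234 against 3943 and 3845 (0.54 ± 0.43, adjusted p = 0.485) and Snora30 at 1908 and 765 against 916 and 416 (0.97 ± 0.75, adjusted p = 0.473). On the lower side stood Snord96a at 13249 and 6707 against 14365 and 21855 (-0.91 ± 0.83), Snora5c (-0.45 ± 0.46) and Scarna13 (-0.52 ± 0.49), whose limma adjusted p-values were 0.539, 0.590 and 0.556.

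In serum no member separated P53-/- from WT by the test. 0 of 102 members were called higher and 0 lower by limma, against 0.135% and 0.883% of all genes tested, and 0 of the 75 members above 0 throughout had an unadjusted p under 0.05. The median log2 change of the 75 members was 0.23 (C/D 0.21, H/ACA 0.19, scaRNA 0.85), and 63 of them had a positive estimate. This balance rested on the 2 unlike WT serum libraries: the median was -0.86 without library 1, with 0 members called, and 1.40 without library 2, when 4 of the 75 were called higher. Snord17, in the sorting nexin gene Snx5, had 216368 and 318845 FPKM (P53-/- serum) and 59480 and 193511 (WT serum), a log2 change of 1.29 ± 0.87 (adjusted p = 0.617). Scarna3a had 3697 and 4046 against 976 and 3248 (1.12 ± 0.73, adjusted p = 0.598). Both had P53-/- libraries above both WT libraries. So did Snord47, with 141276 and 188581 FPKM (P53-/- serum) against 27508 and 99423 (WT serum), which was at 0 in WT 2i library 2. The remaining 99 of the 102 members overlapped, and no share over all genes was computed for this separation. Scarna13 had 2560 and 3125 against 851 and 2887 (0.85 ± 0.49, adjusted p = 0.547), which overlapped. The 3 most negative by their statistic, Snora78 (-0.32 ± 0.43), Snora43 (-0.26 ± 0.69) and Snord23 (-0.13 ± 0.47), had adjusted p-values of 0.820, 0.925 and 0.951, and all 3 estimates turned positive without WT serum library 2.

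The P53 effect was then compared between the media. Among all 102 members, 4 passed the interaction thresholds as more positive in 2i and 0 as more negative, where all genes gave 0.103% in each direction. These were Snora61, Snord37, Snord45b and Snord88c, which had no signal in either WT 2i library, were present in both of every other group and were chosen through those groups. Their passing follows from those values and the pseudocount, and nothing is read from the count. The 4 are likewise outside the 75 members above 0 throughout, of which 0 were called and 0 had an unadjusted p under 0.05, with a median of -0.41 (0.13 with centred rows, 0.75 without WT serum library 1 and -1.49 without library 2). The most negative estimate by its statistic was that of Scarna13 (-1.37 ± 0.69, limma adjusted p = 0.450), followed by Snord17 (-1.83 ± 1.23, adjusted p = 0.571) and Snord96a (-1.49 ± 1.17, adjusted p = 0.625). Snord17 was the 1 member of 102 whose P53-/- and WT libraries did not overlap in either medium and lay in opposite directions, a pattern that 7.6% of all genes tested showed. The most positive were Scarna3b (0.72 ± 0.69, adjusted p = 0.698), Scarna8 (0.56 ± 0.61, adjusted p = 0.731) and Snora24 (0.59 ± 0.95, adjusted p = 0.841), all of which turned negative without WT serum library 2.

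The media differed far more than the genotypes. In WT cells 26 of the 75 members were called lower in 2i than in serum (16 C/D, 9 H/ACA and 1 scaRNA) and 2 higher (both H/ACA), and in P53-/- cells 32 were called lower (19 C/D, 10 H/ACA and 3 scaRNA) and 1 higher (H/ACA). Of all genes tested, 28.6% were called lower and 27.2% higher in WT, and 30.1% and 28% in P53-/-. The 38 C/D genes had negative estimates in every case, with median log2 changes of -2.42 in WT and -2.92 in P53-/-. H/ACA medians were -1.004 and -1.25, and scaRNA medians -1.26 and -1.67, beside -0.02 and -0.03 over all genes tested. The WT medians rested on the unlike WT serum libraries: without library 2 they were -1.28 (C/D), 0.24 (H/ACA) and -0.12 (scaRNA), and without library 1 they were -3.71, -2.15 and -2.13. Fewer cells that hold an RNA and less of it per cell cannot be told apart in bulk RNA. Over all 102 members the counts were 44 lower and 2 higher in WT, and 38 lower and 1 higher in P53-/-.

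Lower and higher are relative to the scale. Centring each library on its snoRNA and scaRNA rows adds 1 constant to every member of a comparison and brings their median close to 0 by construction, so that it shows members relative to each other only. On that scale 14 of the 75 were lower and 18 higher in WT, and 8 lower and 24 higher in P53-/-, with medians of -0.66 (C/D), 0.75 (H/ACA) and 0.50 (scaRNA) in WT and -0.63, 1.04 and 0.63 in P53-/-. The H/ACA and scaRNA medians thus change sign through that constant. With quantile normalisation, which makes the distribution of all genes alike, 5 were lower and 20 higher in WT and 10 and 14 in P53-/-. The H/ACA median was then 0.99 in WT and 0.64 in P53-/-, and the C/D median -0.11 and -0.34. Median-ratio scaling over all genes left the counts over all 102 members at 44 lower and 2 higher in WT. The WT serum libraries set the WT count: without library 1, 63 of the 75 were called lower and 1 higher, and without library 2, 17 lower and 8 higher.

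Length moved with these differences. The length classes here hold only genes above 0 in all 8 libraries with a mean FPKM of at least 0.5. Of the 33 C/D members of at most 80 bases, the 15 at 0 in WT 2i library 2 are therefore left out. The median log2 change from serum to 2i in WT was -2.92 for 19 genes of at most 80 bases (18 of them members), -1.89 for the 16 beyond that and up to 110 bases (14 members), -1.23 for the next 43 up to 150 bases (37 members) and -0.19 for the next 88 up to 400 bases (6 members). In P53-/- cells the same medians were -3.19, -2.51, -1.42 and -0.32. WT serum library 2 stood above library 1 by 2.46, 2.06, 2.32 and 0.37 in those length classes and by 0.01 in genes over 1000 bases. The part of length in the difference between the media was not tested. Across the 75 members, Spearman's rho between length and the log2 change was 0.557 in WT and 0.502 in P53-/-. Within C/D genes it was 0.520 and 0.407, and within H/ACA genes, whose lengths are alike, 0.137 and 0.020.

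**Figure D3:**
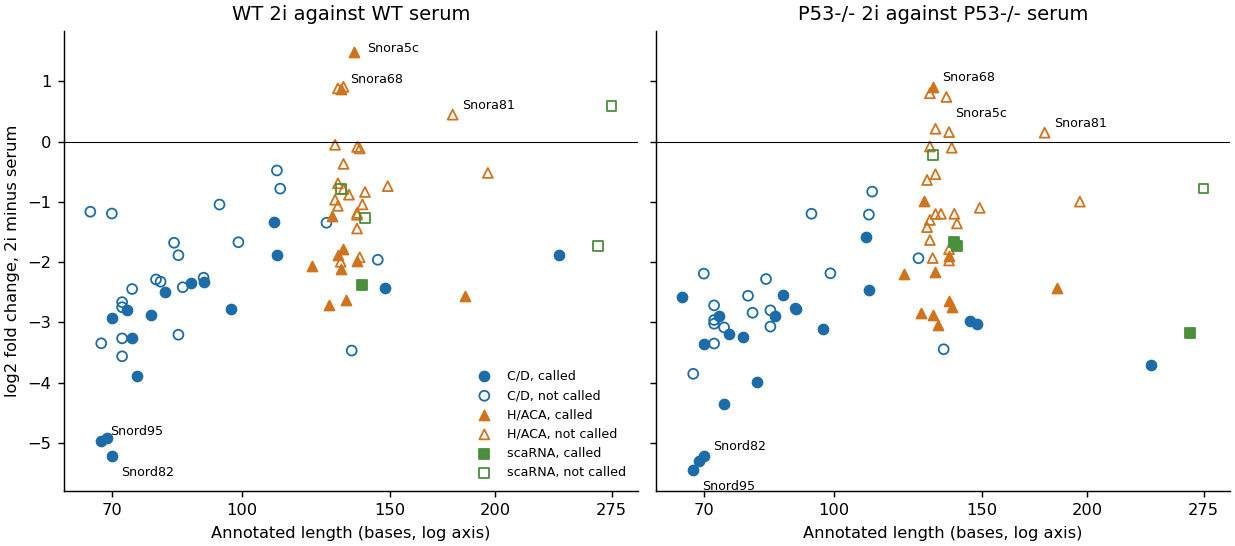
log2 fold change from serum to 2i (limma on log2(FPKM + 0.1)) against annotated length (log axis) for the 75 members above 0 in all libraries, in WT (left) and P53-/- cells (right); filled symbols were called. The lowest values, below -4.9, are those of Snord82, Snord95 and Snord42b, and H/ACA genes of nearly equal length spread from below -2.5 to above 0.8.

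The largest falls were those of short C/D genes. Snord82 had 22546 and 17605 FPKM (WT 2i) against 307979 and 1770000 (WT serum), a log2 change of -5.21 ± 1.34 (limma adjusted p = 0.0111), and 43869 and 24850 (P53-/- 2i) against 1120000 and 1330000 (P53-/- serum), a log2 change of -5.21 ± 1.34 (adjusted p = 0.0106). Snord95 had 6149 and 17605 against 152434 and 691300 in WT (-4.96 ± 1.09, adjusted p = 0.00548), and 21008 and 7100 against 526332 and 537101 in P53-/- (-5.44 ± 1.09, adjusted p = 0.00331). Snord42b, in Rpl23a, had 49486 and 27896 against 472580 and 2640000 in WT (-4.91 ± 1.55, adjusted p = 0.0260) and fell by 5.30 in P53-/-. These 3 were called lower in both genotypes also with centred rows and with quantile normalisation, but with smaller changes: in WT -3.45 and -2.86 for Snord82, -3.21 and -2.50 for Snord95, and -3.15 and -2.44 for Snord42b. Their size in WT also moved with the WT serum libraries: without library 1 and without library 2 it was -6.47 and -3.95 for Snord82, -6.05 and -3.87 for Snord95, and -6.15 and -3.67 for Snord42b. Leaving out 1 library ended some of these calls, that of Snord42b in WT without WT 2i library 2 and in P53-/- without either P53-/- 2i library, and that of Snord82 in P53-/- without P53-/- 2i library 2. Calls were also made on all 3 scales, with changes given here as deposited, for Snord1b in WT (-3.89, lost without WT 2i library 2) and for Snord100 (-4.35, lost without library 2 of either P53-/- group), Snord96a (-3.99) and Snord17 (-3.71) in P53-/-. Snord100 fell by 3.25 in WT (adjusted p = 0.0776), a call lost with quantile normalisation and without any 1 library other than those of WT serum.

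As deposited, 2 H/ACA genes were called the other way in WT. With quantile normalisation 16 of the 32 H/ACA genes were called higher and 0 lower in WT. Snora5c (136 bases) had 8133 and 9326 FPKM (WT 2i) against 1879 and 5168 (WT serum), a log2 change of 1.48 ± 0.46 (adjusted p = 0.0244), and 7388 and 5466 (P53-/- 2i) against 3883 and 3732 (P53-/- serum), a log2 change of 0.74 that was not called (adjusted p = 0.195). Its WT change was 0.75 without WT serum library 1 and 2.21 without library 2. Snora68 (131 bases) had 6061 and 5544 against 2163 and 4604 in WT (0.88 ± 0.40, adjusted p = 0.0937), and 7957 and 5632 against 4139 and 3070 in P53-/- (0.91 ± 0.40, adjusted p = 0.0815). Both stood above both serum libraries in each genotype. Snora68 was called higher with centred rows and quantile normalisation in both genotypes, but its call on the deposited scale was lost in WT without any 1 library other than WT serum library 2, and in P53-/- without any 1 library other than those of WT serum. Of nearly the same length, Snora28 (127 bases, in the initiation factor gene Eif5) had 14463 and 16073 against 34291 and 290013 in WT (-2.71, adjusted p = 0.0477), and Snora75 (133 bases, in Ncl) had 6041 and 7075 against 15081 and 108792 (-2.63, adjusted p = 0.0328). Snora23, in the importin gene Ipo7, had 4422 and 3921 against 15080 and 40436 and the lowest adjusted p of the class in WT, 0.00309 (-2.57). With quantile normalisation the WT changes of Snora28, Snora75 and Snora23 were -0.33, -0.31 and -0.47, and none was called (limma adjusted p = 0.513, 0.529 and 0.252). With quantile normalisation the H/ACA median was above 0 in both genotypes, as given above.

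Among scaRNA genes, Scarna3b fell from 1552 and 5160 FPKM (WT serum) to 453 and 647 (WT 2i), a log2 change of -2.39 (adjusted p = 0.00396) that was -0.63 with centred rows and -1.82 with quantile normalisation and was called on each scale. In P53-/- its change of -1.67 (adjusted p = 0.0187) was 0.63 with centred rows, through the constant that centring adds to every member. Scarna6 fell by 3.17 in P53-/- (adjusted p = 0.0191), and its change was -0.87 with centred rows and -1.61 with quantile normalisation, again called on each scale.

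Some members were listed at 0 in a whole group. In WT cells 7 members were above 0 in both serum libraries and at 0 in both 2i libraries, namely Snord45b, Snord37, Snord73a, Snora61, Snord88c, Snord4a and Snord123. Snord73a had 12444 and 89170 FPKM (WT serum). In P53-/- cells only Snord72 showed this, with 1403 and 2156 FPKM in serum. No member was above 0 in both 2i libraries and at 0 in both serum libraries of a genotype. Of all genes tested, 0.255% were above 0 in serum and at 0 in 2i in this way in WT and 0.278% in P53-/-, and 0.469% showed the reverse in either genotype. These members entered the selection through the groups in which they were present, so their number is a description.

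The ratio of members of the same host within a library does not change when a library is multiplied by 1 factor, but it does with quantile normalisation, and the ratios here are of deposited FPKM. It could be formed for 19 pairs from 10 hosts with both members above 0 throughout. In 8 pairs the 4 libraries from 2i did not overlap the 4 from serum. Of all genes tested, 60.8% had levels that did not overlap between the media in this way, and no share was computed for ratios of other gene pairs. Snora75 relative to Snord82, both in Ncl, was 0.203 to 0.402 in 2i and 0.0466 to 0.0615 in serum. Snora33 relative to Snord100, both in Rps12, was 0.271 to 0.722 and 0.0318 to 0.0362. Each of these pairs joins an H/ACA gene with a shorter C/D gene. Pairs of like length also moved: Snora2b relative to Snora34 (137 and 138 bases, in Kansl2) was 0.0180 to 0.0704 in 2i and 0.00442 to 0.0117 in serum, and Snora16a relative to Snora44 (137 and 129 bases, in Snhg12) was 1.11 to 1.68 and 2.32 to 3.26. The first of these did not hold in WT with quantile normalisation, where the log2 changes of Snora2b and Snora34 from serum to 2i were 0.27 and 0.71, against -0.09 and -1.92 as deposited. In P53-/- they were 0.32 and -0.32 with quantile normalisation, against 0.16 and -2.75. Within Rpl13a, whose 4 intronic C/D members are known for a part in the response to lipid stress, Snord32a relative to Snord35a was 2.01 to 2.60 in 2i and 1.54 to 1.61 in serum, while Snord33 relative to Snord35a overlapped (1.36 to 2.18 and 1.47 to 1.63). With quantile normalisation the log2 changes of Snord32a and Snord35a were 0.62 and 0.27 in WT but 0.39 and 0.42 in P53-/-. The remaining pairs included Snord49a with Snord49b, at 0.462 to 0.659 and 0.465 to 0.680.

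**Figure D4:**
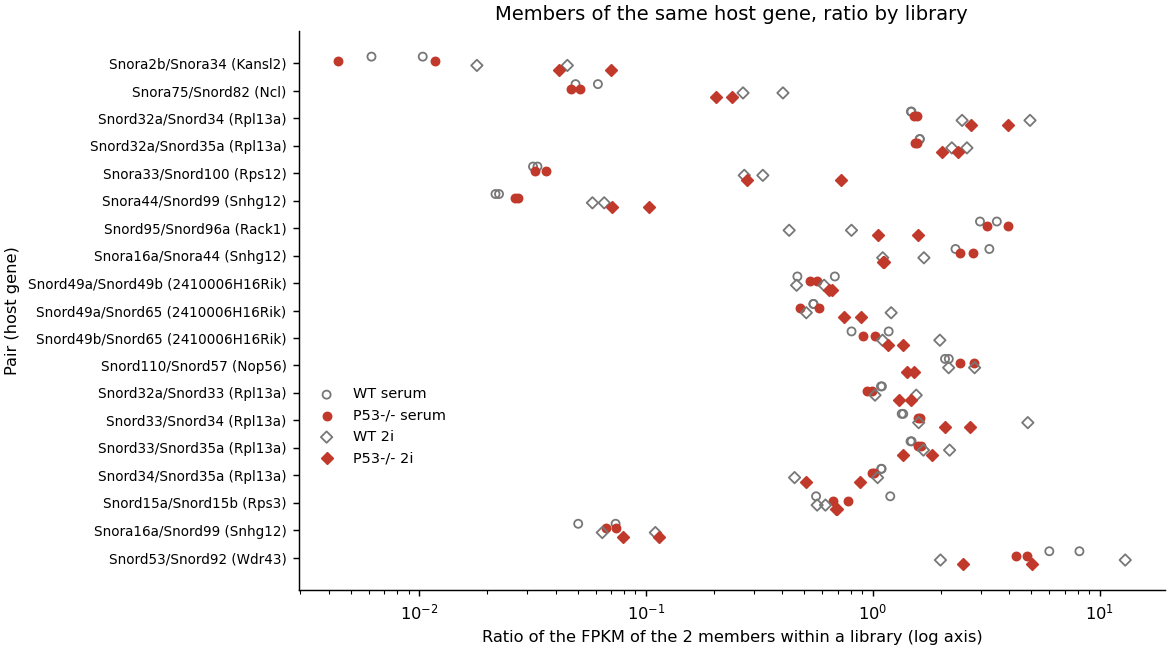
Ratio of the FPKM of members of the same host gene within each library (log axis), for the 19 pairs above 0 in all libraries; each symbol is 1 library, diamonds are 2i, circles are serum, and filled symbols are P53-/-. In the upper 8 pairs the diamonds and circles do not overlap, as in Snora33/Snord100 at 0.271 to 0.722 and 0.0318 to 0.0362.

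The host genes, whose own values the choice of members did not use, were tested next. Of 73 hosts 70 were tested. Between P53-/- and WT, 1 was called higher in 2i (Cct6a, a chaperonin subunit gene that holds Snora15) and 0 lower, and in serum and for the interaction 0 were called in either direction. The background shares were 4.36% higher and 5.97% lower in 2i, 0.135% and 0.883% in serum, and 0.103% each way for the interaction. From serum to 2i, 25 hosts were called higher and 23 lower in WT and 20 higher and 24 lower in P53-/-, with medians of 0.20 and -0.11. These were 35.7% and 32.9% of the hosts in WT and 28.6% and 34.3% in P53-/-, beside 27.2% and 28.6% of all genes in WT and 28% and 30.1% in P53-/-. Ncl had the lowest adjusted p among those that fell, with 436 and 406 FPKM (WT serum) and 31.4 and 48.4 (WT 2i), a log2 change of -3.43 (limma adjusted p = 2.63e-05).

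Host and member could move in opposite directions between the media. Rack1 rose from 1249 and 1153 FPKM (WT serum) to 4733 and 4837 (WT 2i) (log2 2.00) while its Snord95 fell by 4.96. The non-coding host 2410006H16Rik rose from 117 and 131 FPKM to 793 and 1166 (2.96), while the changes of its Snord49b and Snord65, -2.66 and -3.26, were not called (limma adjusted p = 0.526 and 0.401). Ncl fell with its Snord82 and Snora75. Across the 69 members with a tested host, Spearman's rho between member and host was 0.011 in WT and -0.043 in P53-/- for the change of medium, and for the change of genotype it was 0.425 in 2i and -0.001 in serum. Within H/ACA genes it was 0.398 for the medium in WT and -0.424 for the genotype in serum. These points share libraries, and members of 1 host share its value.

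**Figure D5:**
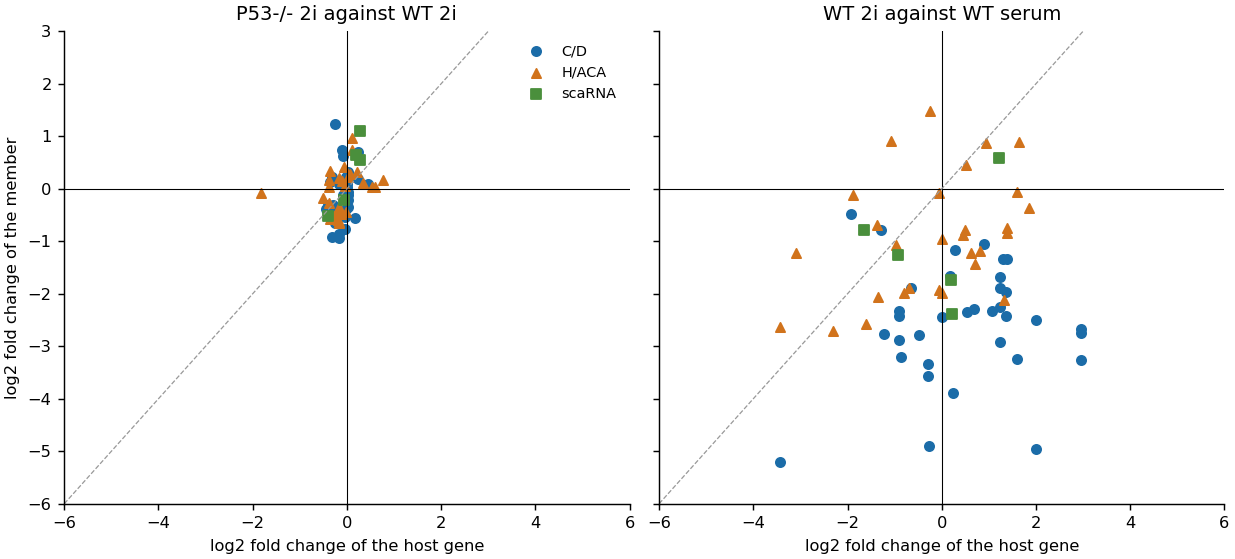
log2 fold change of the member against that of its host gene for members above 0 in all libraries, for P53-/- against WT in 2i (left) and WT 2i against WT serum (right); the dashed line marks equal change. On the right the C/D genes lie below 0 whether their host rose or fell, with Spearman's rho of 0.011 over 69 members of all classes.

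The proteins that bind, assemble or process these RNAs were read from a list of 30 symbols, of which 28 were tested. Between P53-/- and WT, 0 were called by limma in 2i, in serum or for the interaction. Of all genes tested, 4.36% were called higher and 5.97% lower in 2i, 0.135% and 0.883% in serum, and 0.103% each way for the interaction. From serum to 2i, 12 were called lower and 2 higher in WT (42.9% and 7.14%, beside 28.6% and 27.2% of all genes). In P53-/- 11 were called lower and 3 higher (39.3% and 10.7%, beside 30.1% and 28% of all genes). Fibrillarin (Fbl), the methyltransferase of C/D particles, had 27.8 and 28.2 FPKM (WT 2i) and 91.3 and 74.1 (WT serum), a log2 change of -1.55 (adjusted p = 0.000305). The core protein Nop58 fell by 0.86, whereas its partner Nop56 had a change of -0.29 that was not called. Of the H/ACA core, Gar1 fell from 55.4 and 50.3 to 10.6 and 13.4 FPKM (-2.14), the pseudouridine synthase Dkc1 fell by 0.60, and Nhp2 had a change of 0.27. Naf1, which assembles H/ACA particles, fell by 2.56. Nolc1 and Tcof1, nucleolar phosphoproteins that bind the particles, fell by 1.53 and 1.22. Of the genes listed for maturation and decay, the exosome nuclease Dis3 fell by 1.73, the exosome subunit Exosc3 by 0.64 and the poly(A) polymerase Tent4b by 1.39, Nop53 rose by 1.30, and the nucleases Exosc10 and Parn had changes of 0.48 and 0.05 that were not called. Pih1d1, a subunit of the R2TP chaperone, rose by 1.41. The Cajal body proteins Coil and Wrap53 had changes of 0.10 and -0.22, neither called.

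At the edge of the selection, the lowest value that made a symbol a member was 164 FPKM for Snord123, 399 for Snora36b and 408 for Snord4a. Just outside, Snord43 had 8253 FPKM in P53-/- serum library 1 and 12756 in WT serum library 2 and was at 0 elsewhere. Snord70 had 2510 in 1 library and Snord90 547 and 469 in libraries of different groups. A further 9 symbols with such names were at 0 in every library.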

How the data were processed

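Total RNA was extracted with the RNeasy Mini Kit, ribosomal RNA was depleted with Ribo-Zero Gold, and random-primed stranded libraries were made with the KAPA kit, per the labels. The deposited table gives FPKM per gene symbol, made by the authors from reads on mm9. The submitters' processing notes name STAR, Cufflinks and DESeq2, without a version, and the annotation and the assignment of reads shared by several loci are not given in the sources used here. FPKM holds no counts, so depth is unknown, no count model or counting interval was used, and a value of 0 is given as listed at 0. FPKM divides by a length, so 1 fragment weighs more in a short gene. The length used is not given and need not be the annotated one. Columns carry the group but no replicate number. The P21-/- samples and the samples titled 2i_WT are not analysed here.

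The 12572 genes whose FPKM averaged 0.5 or more went into a limma (version 3.58.1, R 4.3.3) fit of log2(FPKM + 0.1), with the 4 groups in 1 fit, an intensity trend and Benjamini-Hochberg adjustment. Calls needed an adjusted p below 0.1 and more than a 1.5-fold change. Fold changes are on the log2(FPKM + 0.1) scale. The script was tested on simulated data. With 2 libraries against 2 an exact permutation test cannot go below 0.33. All 102 members passed the filter on low values. Lengths, hosts and sequences came from GENCODE M21 (GRCm38), matched by symbol. A host is a longer gene on the same strand that spans the member, and an intron means no overlap with a basic exon of the host. Named members were the 5 of highest mean level per class, all scaRNAs, the 5 largest called changes in each direction (or the 3 largest by moderated statistic where fewer than 3 were called in both directions together), those listed at 0 in a whole group, and those at the edge of the selection. Snora28, Snora75, Snora23, Snord118, Snord22, Snord42a, Snord68, Rmrp, Rnu11, Rnu12 and the members compared within a host were chosen after their values were seen. The members and lists were chosen with earlier results of these data known. A library left out leaves a group with 1 library, assumed to vary like the other groups. The membership rule, the pseudocount, filters, scaling, trend and libraries were varied. Some host genes and a sequence are not reported here.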

Additional observations from a re-analysis of the deposited data

Results flagged for a closer look

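Snord17 was flagged for its opposite directions alone, a pattern that was more common over all genes tested than among the members. Both P53-/- libraries lay below both WT libraries in 2i (20202 and 19914 against 26050 and 32521 FPKM) and above both in serum (216368 and 318845 against 59480 and 193511). The log2 interaction was -1.83, which limma did not call (adjusted p = 0.571). It was -0.98 without WT serum library 1 and -2.68 without library 2, and the change in serum, 1.29, ranged from 0.44 without WT serum library 1 to 2.14 without library 2. Such opposite separation was found for 1 member of 102 and for 7.6% of all genes tested.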

How the results depend on the processing

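No paired analysis was possible because the columns carry no replicate numbers. The calls between genotypes moved with single libraries. Counts are over all 102 members and include those listed at 0, for which they are a description. In 2i, members called higher in P53-/- ranged from 4 to 16 when libraries were left out (16 without WT 2i library 1) and 5 were called lower with quantile normalisation. In serum they ranged from 0 to 5 higher (5 without WT serum library 2) and from 0 to 1 lower (1 without either P53-/- serum library). For the interaction the ranges were 4 to 16 more positive and 0 to 2 more negative (2 without WT serum library 2). From serum to 2i in WT, 2 members were called higher and 44 lower, and left-out libraries gave 1 to 8 and 27 to 78 (8 and 27 without WT serum library 2, 78 without library 1, 28 lower without WT 2i library 2). Testing all genes above 0 gave 1 higher, quantile normalisation 20 and 20, centred member rows 18 and 29, and only the groups compared 1 and 21. In P53-/- the counts were 1 and 38, with 0 to 2 and 18 to 66 for left-out libraries (25 lower without P53-/- 2i library 1, 18 without library 2, 19 without P53-/- serum library 2 and 66 without either WT serum library), 0 and 25 for all genes above 0, 15 and 14 for quantile, 26 and 11 for centred rows, and 2 and 74 for only the groups compared. The cause was not tested.

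Host genes called between genotypes in 2i ranged from 0 to 2 higher and 0 to 3 lower, with 3 lower under quantile normalisation and 0 higher with only the groups compared, and snoRNP genes from 0 to 1 each way. snoRNP genes called higher in 2i were 4 in WT and 5 in P53-/- with quantile normalisation and 2 to 6 in P53-/- for left-out libraries. These settings for hosts and snoRNP genes were added after seeing the data.

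Taking the median level of the members above 0 in all 8 libraries (38 of 61 C/D, 5 of 8 scaRNA) in place of the sum over all members changed both the measure and the members, whose parts were not separated. It moved the C/D log2 ratio from -0.16 to -0.34 (P53-/- against WT, 2i) and from -2.92 to -3.68 (2i against serum, P53-/-), and the scaRNA ratio from 0.41 to -0.43, from -1.54 to -0.35 (2i against serum, WT) and from -1.62 to -1.23.

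Of 521 values of named members under alternatives, 470 kept direction and call, 36 lost it, 8 gained it and 7 reversed. In serum Scarna13 ranged from -0.030 to 1.73, Snora43 from -1.22 to 0.70, Snora78 from -0.86 to 0.21 and Snord23 from -0.89 to 0.64. For the interaction Scarna3b ranged from -0.15 to 1.58, Scarna8 from -0.10 to 1.23 and Snora24 from -0.44 to 1.61. Unknown depth and 2 libraries a group limit every value.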
